A study of Mus musculus with 6 samples.

Results

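The genes described here are 38 mouse genes of pluripotency, of the trophoblast, of the zygote and of the oocyte, out of 21887 protein-coding genes on chromosomes 1 to 19, X and Y. They were chosen by name, as genes active in the oocyte, the zygote and the early embryo. They comprised 15 pluripotency genes, 4 trophoblast genes, 7 zygotic genes and 12 oocyte genes, and all 38 were found in the gene table. Nucleosome-sized DNA that survived digestion with micrococcal nuclease (MNase-seq) was profiled in sperm from epididymis and vas deferens, and the deposited data were 1 list of enriched regions (broad peaks, build mm10) per library. The K49A group held 2 libraries (K49A 1 and 2) from mice whose protamine 1 carries alanine in place of a lysine, a change that the label K49A names. The WT group held 4 libraries (WT 1 to 4) from wild-type C57BL6 mice. Nothing in the sources used here tells the number or age of the animals behind each library. The question of the comparison was where sperm of each genotype keep nucleosomes.

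During the last steps of sperm development most histones are exchanged for protamines, small basic proteins that pack the DNA tightly. Some nucleosomes remain, and in mouse sperm they are known to favour CpG-rich promoters, including promoters of genes that are silent in the germ line and become active in the embryo. The pluripotency and trophoblast genes separate the lineages of the blastocyst, the zygotic genes form a burst of transcription in the first divisions after fertilisation, and the oocyte genes build the egg coat or supply the egg with maternal proteins.

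The peak lists differed in length across the whole genome. K49A 1 and 2 held 700 and 1017 peaks over 0.274 and 0.409 Mb, and WT 1 to 4 held 11313, 20458, 22237 and 27903 peaks over 5.76, 13.5, 14.5 and 13.8 Mb. The lists give no read counts, so the depth behind each value is unknown, and a gene without a peak is a gene at which no region passed the caller's threshold. The weakest peak of a K49A list had a −log10 p of 4.55, and the weakest of a WT list one of 3.32. The lowest −log10 q was nearly the same in all lists, 1.04 and 1.01 in K49A 1 and 2, and 1.0, 1.02, 1.01 and 1.01 in WT 1 to 4. Every fold, −log10 p and −log10 q below is the authors' value for that peak, relative to the background of its own library. Fewer sperm that keep a nucleosome at a site and less DNA recovered there per sperm cannot be told apart. Markers of other cells of the collected tissue were looked at in the same way. Of 16 epididymal epithelium genes, 0 in each K49A library and 1 to 2 in each WT library had a peak within 1 kb of a gene end, and of 16 leukocyte genes 0 in each K49A library and 5 in each WT library did. In WT this is 9.38 ± 3.61% (SD, n = 4) and 31.2%, beside 42.0% of all genes. Of the 16 leukocyte genes, Fcgr3 (6.25%) had a peak inside the gene only in both K49A libraries, beside 0.822 and 1.25% of all genes in K49A 1 and 2. A peak overlapped the same region in every WT library. Its −log10 q was 2.89 and 2.49 in K49A 1 and 2, and 4.28, 4.01, 7.38 and 6.71 in WT 1 to 4. The part of other cells in the results was not tested.

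The promoters of the members show the sequence context of these results. RefSeq promoter entries (build GRCm38.p6, 250 bases before to 50 bases after the annotated start) were found for 24 of the 38 members, 29 promoters in all. The first set comes from members with a gene-end peak in every WT library but in no K49A library. They are Utf1 (chr7:139943606-139943905, plus strand), a chromatin-bound factor of undifferentiated embryonic cells, Cdx2 (chr5:147307200-147307499, minus strand), the homeobox factor of the trophectoderm, Zar1 (chr5:72581035-72581334, minus strand), which binds maternal mRNA, and Ooep (chr9:78378539-78378838, minus strand), a member of the subcortical maternal complex. Capitals mark CpG dinucleotides in all sequences, which run 5′ to 3′ on the strand of the gene.
Utf1: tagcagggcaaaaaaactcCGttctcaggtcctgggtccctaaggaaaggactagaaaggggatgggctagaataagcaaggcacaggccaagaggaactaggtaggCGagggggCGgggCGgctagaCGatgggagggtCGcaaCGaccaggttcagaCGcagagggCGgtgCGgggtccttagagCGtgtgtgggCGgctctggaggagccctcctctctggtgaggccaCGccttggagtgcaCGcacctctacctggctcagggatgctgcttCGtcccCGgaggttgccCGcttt
Cdx2: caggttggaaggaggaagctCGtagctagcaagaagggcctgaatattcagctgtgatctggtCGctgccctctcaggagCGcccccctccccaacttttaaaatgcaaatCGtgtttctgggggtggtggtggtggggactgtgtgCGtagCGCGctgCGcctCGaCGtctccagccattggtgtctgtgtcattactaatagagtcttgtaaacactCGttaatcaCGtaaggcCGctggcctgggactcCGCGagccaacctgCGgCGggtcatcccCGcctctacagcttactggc
Zar1: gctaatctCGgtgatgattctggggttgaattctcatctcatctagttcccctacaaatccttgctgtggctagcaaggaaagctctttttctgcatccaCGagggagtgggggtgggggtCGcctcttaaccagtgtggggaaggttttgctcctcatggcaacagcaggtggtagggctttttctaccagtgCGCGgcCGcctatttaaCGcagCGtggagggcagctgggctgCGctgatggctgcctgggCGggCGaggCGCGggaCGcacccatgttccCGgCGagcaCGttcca
Ooep: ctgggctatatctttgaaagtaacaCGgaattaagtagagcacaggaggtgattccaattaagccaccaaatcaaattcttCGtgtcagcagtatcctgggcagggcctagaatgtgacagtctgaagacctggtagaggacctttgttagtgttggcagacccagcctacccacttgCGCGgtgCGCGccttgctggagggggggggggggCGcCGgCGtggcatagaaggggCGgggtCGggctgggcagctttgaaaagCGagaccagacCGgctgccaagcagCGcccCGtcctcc

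The next sequence is shown because its gene was the one member with peaks in K49A. Duxf3 (chr10:58233040-58233339, minus strand) encodes Dux, a double homeobox factor that switches on zygotic genes.
Duxf3: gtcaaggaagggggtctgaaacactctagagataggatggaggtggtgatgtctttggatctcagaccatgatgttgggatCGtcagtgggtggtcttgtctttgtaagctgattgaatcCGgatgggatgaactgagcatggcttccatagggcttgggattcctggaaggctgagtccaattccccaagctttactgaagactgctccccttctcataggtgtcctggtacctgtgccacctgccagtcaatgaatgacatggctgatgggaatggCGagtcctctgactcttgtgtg

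The last set comes from members with no peak in any library. They are Nanog (chr6:122707239-122707538, plus strand), a homeobox factor of the pluripotent epiblast, Zscan4c (chr7:11005495-11005794, plus strand), a zinc finger gene of the zygotic burst, and Zp3 (chr5:135979855-135980154, plus strand), which encodes a glycoprotein of the egg coat.
Nanog: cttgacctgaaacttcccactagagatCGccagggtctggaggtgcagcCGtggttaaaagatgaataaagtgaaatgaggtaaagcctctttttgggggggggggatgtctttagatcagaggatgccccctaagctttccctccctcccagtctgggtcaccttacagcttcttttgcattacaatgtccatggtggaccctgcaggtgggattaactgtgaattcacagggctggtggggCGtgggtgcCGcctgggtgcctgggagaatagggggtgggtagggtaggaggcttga
Zscan4c: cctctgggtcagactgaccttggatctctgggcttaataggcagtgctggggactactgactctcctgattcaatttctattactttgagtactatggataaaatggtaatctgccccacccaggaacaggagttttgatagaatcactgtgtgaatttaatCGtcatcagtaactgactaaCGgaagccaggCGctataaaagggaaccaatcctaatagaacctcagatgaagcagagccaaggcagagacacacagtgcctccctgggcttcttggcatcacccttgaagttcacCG
Zp3: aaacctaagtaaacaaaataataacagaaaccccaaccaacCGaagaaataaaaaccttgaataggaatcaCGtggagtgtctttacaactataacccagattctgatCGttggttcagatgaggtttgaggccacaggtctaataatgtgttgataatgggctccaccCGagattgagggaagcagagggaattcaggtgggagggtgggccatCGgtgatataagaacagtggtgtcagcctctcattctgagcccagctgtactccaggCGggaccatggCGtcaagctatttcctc

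These promoters differed in CpG content. Utf1, Cdx2, Zar1 and Ooep held 17, 18, 17 and 15 CpGs in 300 bases, Duxf3 held 3, and Nanog, Zscan4c and Zp3 held 4, 4 and 7. The ratio of observed CpGs to those expected from the base composition was 0.62, 0.73, 0.67 and 0.60 at the first 4, 0.16 at Duxf3, and 0.19, 0.24 and 0.44 at the last 3. The printed sequences are examples, and other members with no peak in any library varied more. The promoters of Tle6 held 3 and 18 CpGs (ratios 0.13 and 0.53), and that of Zfp42 held 11 (0.44). Those of Zscan4d, Zscan4f and Zfp352 held 3, 3 and 2 (0.18, 0.19 and 0.14).

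Peaks at the ends of these genes were nearly absent in K49A sperm and common in WT sperm. An end peak is a peak that overlaps by at least 1 bp the window 1 kb either side of either annotated end of a gene. In K49A 1 and 2, 1 of 38 members had one in each library, against 10, 10, 15 and 14 members in WT 1 to 4. Over all protein-coding genes, the share with an end peak was 0.429 and 0.334% in K49A 1 and 2, against 28.8, 43.0, 46.3 and 49.9% in WT 1 to 4. The members' share was 2.63% in each K49A library and 32.2 ± 6.92% in WT (SD, n = 4), and that of all genes 0.382 ± 0.0678% in K49A (SD, n = 2) and 42.0 ± 9.23% in WT (SD, n = 4). In each WT library the members had end peaks at a lower share than all genes, and in each K49A library 1 gene set the members' share.

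Utf1, Tead4, Cdx2, Zar1 and Ooep had an end peak in every WT library but in no K49A library, which is 5 of 38 members (13.2%), beside 21.8% of all genes. Duxf3 had one in all 6 libraries, as did 0.110% of all genes. No member had one in both K49A libraries and no WT library (all genes 0.00914%). An end peak in at least 1 K49A library was found at 1 member and 0.626% of all genes, and in at least 1 WT library at 18 members (47.4%) and 59.8% of all genes. There were 20 members (52.6%) with no end peak in any library, beside 40.1% of all genes. The count of 5 rests on the lists' own threshold. With peaks required to reach a −log10 p of 5, 0 of 38 members and 6.93% of all genes had an end peak in every WT but no K49A library.

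**Figure D1:**
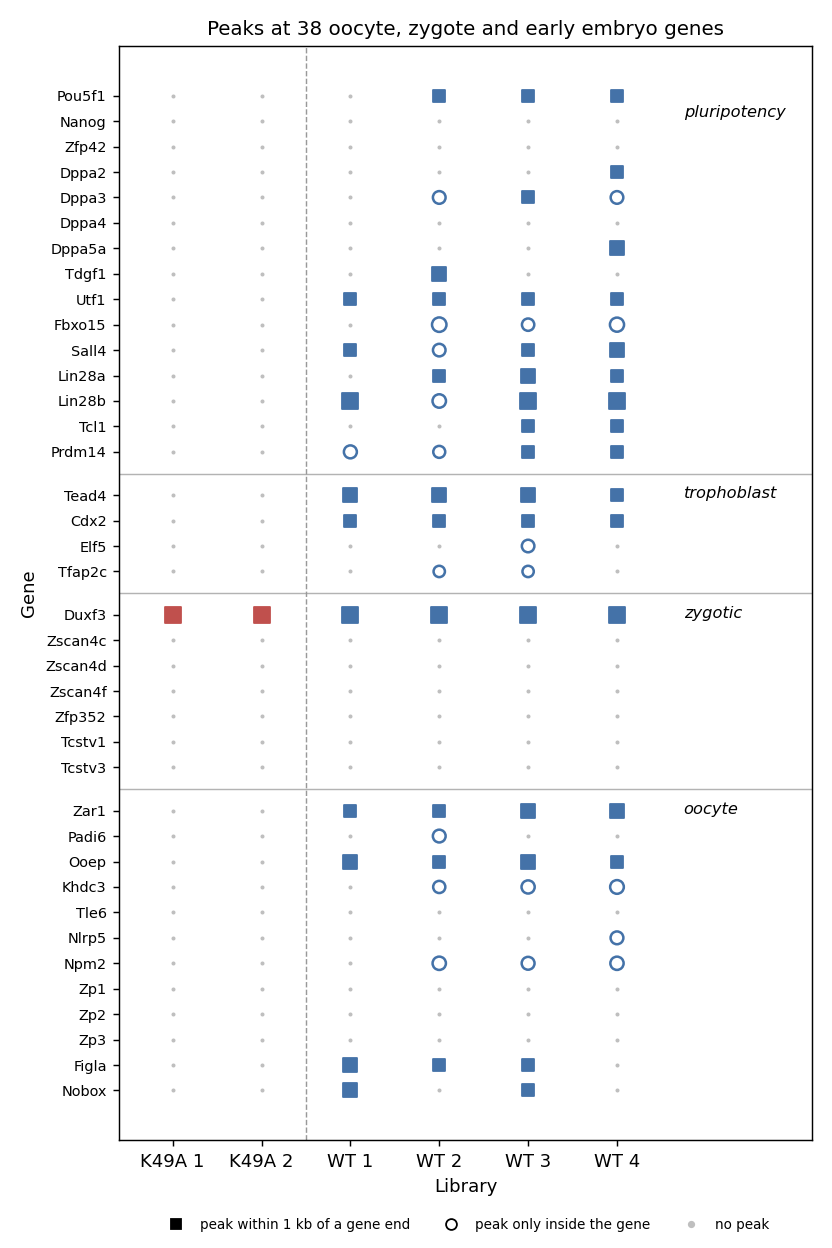
Peaks at each of the 38 genes (rows, by class) in K49A 1 and 2 and WT 1 to 4 (columns). Filled squares are end peaks, open circles peaks only inside the gene, small dots no peak, and the marker area is in proportion to the authors' fold. Duxf3 alone has markers in the K49A columns, and 13 genes have none in any column.

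By class, the mean share of members with an end peak in WT ranged from 14.3% of the zygotic to 50.0% of the trophoblast genes. In K49A 1 and 2, end peaks were found at 0 and 0 of 15 pluripotency genes, against 3, 4, 8 and 9 in WT 1 to 4, a share of 40.0 ± 19.6% (SD, n = 4). Of the 4 trophoblast genes, 0 and 0 had one in K49A and the same number, 2, in every WT library. Of the 7 zygotic genes 1 had one in each of the 6 libraries. Of the 12 oocyte genes 0 and 0 had one in K49A, against 4, 3, 4 and 2 in WT 1 to 4 (27.1 ± 7.98%, SD, n = 4). The SD between WT libraries was largest for the pluripotency genes, and WT 1, the library with the shortest WT list, had the fewest of them.

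**Figure D2:**
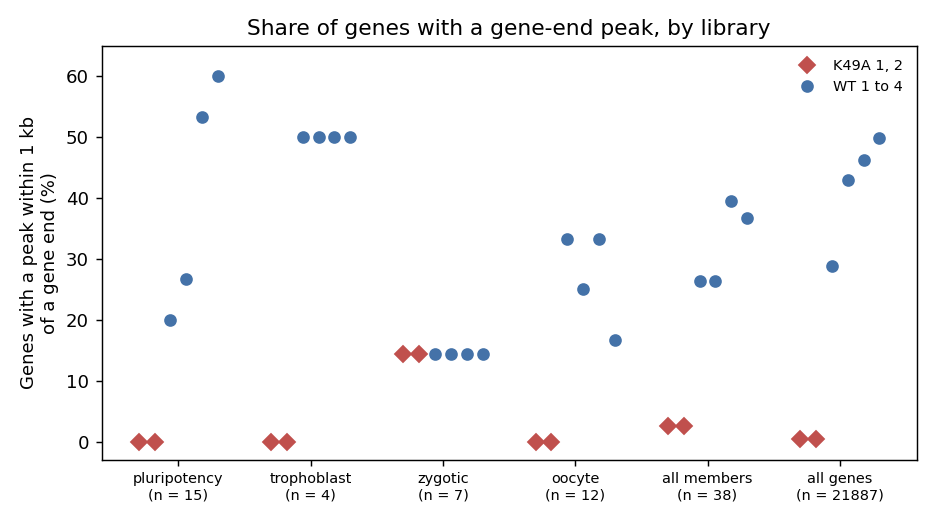
Share of genes with an end peak (percent) for each class, for all 38 members and for all 21887 genes, with 1 point per library, K49A 1 and 2 (diamonds) left of WT 1 to 4 (circles). The K49A points lie at 0 in the pluripotency, trophoblast and oocyte classes, and the zygotic class has the same share, 14.3%, in all 6 libraries.

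Among the pluripotency genes, Utf1 was the one with an end peak in every WT library. This small gene (chr7:139943856-139945112) had no peak in K49A 1 and 2, and a peak of fold 2.70, 2.62, 2.65 and 2.44 in WT 1 to 4 (2.60 ± 0.113, SD, n = 4). The bases covered by peaks at its ends were 0 and 0 in K49A, against 673, 562, 1395 and 336 in WT 1 to 4. The groups did not overlap, and the difference, K49A minus WT, was -741.5 bases (exact permutation test over 15 splits, two-sided p = 0.133, adjusted over all genes by Benjamini-Hochberg 0.605). A p of 0.133 is the smallest that 4 against 2 libraries allow, so no gene could pass 0.05: 0 of 21887 genes did, unadjusted or adjusted. Instead, genes whose groups did not overlap were counted. Covered bases were lower in both K49A libraries than in every WT library for 5 members, the 5 named above, and for 22.0% of all genes, and the reverse held for 0 members and 0.0183% of all genes.

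Lin28b, Sall4 and Prdm14 were marked in every WT library and in no K49A library once peaks inside the gene were counted. Counted this way, 8 of 38 members (21.1%) and 28.0% of all genes had a peak in every WT but no K49A library. Lin28b, whose protein blocks the maturation of let-7 microRNAs, had the end peak with the highest fold of the 38 genes. Its fold at the start of its longest span was 3.97, 4.04 and 4.86 in WT 1, 3 and 4 (4.29 ± 0.495, SD, n = 3), and the −log10 q reached 8.72 in WT 4. In WT 2 the only Lin28b peak, of fold 3.08, lay inside the gene at chr10:45469924-45470123, beside a second annotated start whose promoter entry is chr10:45470152-45470451. The site thus differed between WT 2 and the other WT libraries.

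Sall4, a zinc finger partner of the pluripotency network, had end peaks of fold 2.80, 2.84 and 3.19 in WT 1, 3 and 4 (2.94 ± 0.215, SD, n = 3) and in WT 2 a peak inside the gene of fold 2.69. Prdm14, a regulator of germ cell specification and naive pluripotency, had end peaks of fold 2.70 and 2.58 in WT 3 and 4, and peaks inside the gene of fold 2.86 and 2.44 in WT 1 and 2. Both genes carried these end peaks at their high-coordinate end, and neither had a K49A peak.

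Pou5f1, which encodes Oct4, the central factor of pluripotency, had no peak in K49A 1 and 2 or in WT 1, and end peaks of fold 2.63, 2.83 and 2.59 in WT 2 to 4 (2.68 ± 0.129, SD, n = 3). Lin28a, the paralog of Lin28b, followed the same libraries with fold 2.85, 3.14 and 2.63 in WT 2 to 4 (2.87 ± 0.256, SD, n = 3). Without WT 1, both genes join those with an end peak in every WT but no K49A library, which are then 7 of 38 members (18.4%) beside 32.4% of all genes. Tcl1, a cofactor of Akt, had end peaks in WT 3 and 4 of fold 2.70 and 2.51. Dppa2, a DNA-binding factor of zygotic activation, and Dppa5a, an RNA-binding protein, had one in WT 4 only, and Tdgf1, the Nodal co-receptor Cripto, in WT 2 only. Dppa3, the maternal factor Stella, had an end peak in WT 3 and peaks inside the gene in WT 2 and 4. Fbxo15, an F-box gene known as a target of Oct4, had peaks only inside the gene, with a best fold of 3.18 ± 0.520 (SD, n = 3, WT 2 to 4). In each of these 3 libraries a peak of Fbxo15 also lay within 1 kb of an end of Timm21, so those peaks cannot be given to Fbxo15 alone. Their fold was 3.56, 2.59 and 2.97 in WT 2 to 4. A further peak in WT 4, of fold 3.40, touched no other gene end. It is the WT 4 value in the mean, which thus mixes different sites.

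Nanog, Zfp42, which encodes the zinc finger protein Rex1, and Dppa4, the partner of Dppa2, had no peak in any library. The nearest peak to Nanog was 826 to 6660 kb away in K49A and 37.8 to 56.3 kb away in WT. For Zfp42 the distance was 1620 to 4020 kb in K49A and 21.6 to 100 kb in WT. For Dppa4 it was 579 to 2930 kb in K49A and 14.8 to 961 kb in WT. The pluripotency class thus held both genes marked in every WT library and genes with no peak within 10 kb.

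Both Tead4 and Cdx2, which specify the trophectoderm, were marked in every WT library and in no K49A library. Tead4 (chr6:128227143-128300813), a DNA-binding partner of YAP, had end peaks at its high-coordinate end of fold 3.05, 3.08, 3.21 and 2.85 in WT 1 to 4 (3.05 ± 0.149, SD, n = 4). Covered bases there were 0 and 0 in K49A, against 285, 892, 872 and 798 in WT 1 to 4 (difference -711.8, exact permutation test, two-sided p = 0.133, adjusted 0.605). The groups did not overlap, and WT 1 was the lowest of the WT libraries.

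Tead4 also held the strongest member peak inside a gene. It lay at chr6:128285796-128286015, with the same borders in WT 1, 2 and 3, while in WT 4 it began at position 128285816. Its fold was 4.66, 6.32, 8.37 and 3.90 in WT 1 to 4 (5.81 ± 1.98, SD, n = 4), with −log10 q of 5.94, 13.4, 21.8 and 4.95. No K49A library had a peak in Tead4. With each list cut to its 700 strongest peaks, the length of the shortest list, Tead4 was the one member with a peak inside the gene only, in at least 1 WT library.

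Cdx2 (chr5:147300900-147307249) had no peak in K49A 1 and 2, and end peaks whose best fold was 2.68, 2.51, 2.38 and 2.37 in WT 1 to 4 (2.48 ± 0.145, SD, n = 4). The best peak of WT 1 lay at the low-coordinate end, away from the start, and the WT 1 peak at the start had a fold of 2.62. That best peak lay outside the gene and ended at position 147299902, so it only touched the outer edge of the 1 kb window. Covered bases were 0 and 0 in K49A, against 649, 377, 248 and 436 in WT 1 to 4 (difference -427.5, exact permutation test, two-sided p = 0.133, adjusted 0.605), and the groups did not overlap. None of these peaks overlapped the promoter sequence shown above. The midpoints of the peaks at the start lay 534, 1273, 1246 and 322 bases into the gene in WT 1 to 4, so the position shifted between libraries. Cdx2 was lost from the genes called in all 4 WT libraries with a window of 500 bp. Elf5, an ETS factor of trophoblast stem cells, had a peak inside the gene in WT 3 only. That peak covered the promoter entry of a second annotated start, chr2:103423818-103424117. Tfap2c, which encodes AP-2 gamma, had peaks inside the gene in WT 2 and 3 with fold 2.19 and 2.18. Neither Elf5 nor Tfap2c had a K49A peak.

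Duxf3 was the one zygotic member with a peak, and the one member of any class with a peak in K49A. An end or body peak in at least 1 K49A library was found at 2.32% of all genes. The gene (chr10:58229505-58233089, minus strand) had a pair of peaks around its start in each of the 6 libraries, one inside the gene and one before the start. The inner peak had a fold of 4.04 and 3.08 in K49A 1 and 2, and of 4.45, 4.0, 4.31 and 3.41 in WT 1 to 4. The groups overlapped, with a mean of 3.56 ± 0.679 in K49A (SD, n = 2) and 4.04 ± 0.462 in WT (SD, n = 4), and p was 0.4 in the two-sided exact permutation test. The outer peak had a fold of 4.19 and 4.48 in K49A 1 and 2, and of 2.64, 3.40, 2.87 and 4.45 in WT 1 to 4. WT 4 was as high as the K49A libraries, and the means, 4.34 ± 0.205 in K49A (SD, n = 2) and 3.34 ± 0.806 in WT (SD, n = 4), differed by 0.995, with a p of 0.267 in the same exact test.

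The widths of the pair did not overlap between the K49A and the WT libraries. The inner peak spanned 888 and 887 bases in K49A 1 and 2, and 1392, 1526, 1094 and 1492 bases in WT 1 to 4. The outer peak spanned 541 and 550 bases in K49A 1 and 2, and 510, 349, 525 and 373 bases in WT 1 to 4. The inner peak was thus narrower and the outer wider in K49A than in every WT library. Over all peaks of each list, the median width was 301 and 294 bases in K49A 1 and 2. In WT 1 to 4 it was 404, 557, 542 and 366 bases. The inner peak went the same way as these medians, and the outer peak the other way. The share of all peaks that separate the groups by width was not counted. In the exact permutation test, two-sided p was 0.133 for each width, the smallest possible. These are the unadjusted values of 4 measures tested on the pair. Covered bases at the gene ends were 1130 and 1142 in K49A, against 1125, 1098, 1272 and 956 in WT 1 to 4, and the groups overlapped (difference 23.2, exact permutation test, two-sided p = 0.667, adjusted 1). That difference has no stable direction. It was -65.0 bases with a window of 500 bp, and 150.8 and 513.2 bases with lists of equal length and with 0.5 of the peak required inside the window, and the groups overlapped in each. The groups did not overlap at -448.0 bases with a window of 2 kb, nor at 76.3 bases without WT 3.

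Between the pair lay a gap of 871 and 859 bases in K49A 1 and 2, and of 840, 897, 703 and 1045 bases in WT 1 to 4. In all 6 libraries this gap contained the whole Duxf3 promoter sequence shown above. A further peak lay about 6 kb before the start in each library, with a fold of 5.39 and 5.09 in K49A 1 and 2, and of 4.38, 4.03, 4.38 and 7.05 in WT 1 to 4. The outer peak of the pair was also within 1 kb of an end of Gm4981, the neighbouring gene. Dux genes lie in an array of near-identical copies, and no source used here tells how reads with several matches were placed, so the position and fold of these peaks are uncertain.

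**Figure D3:**
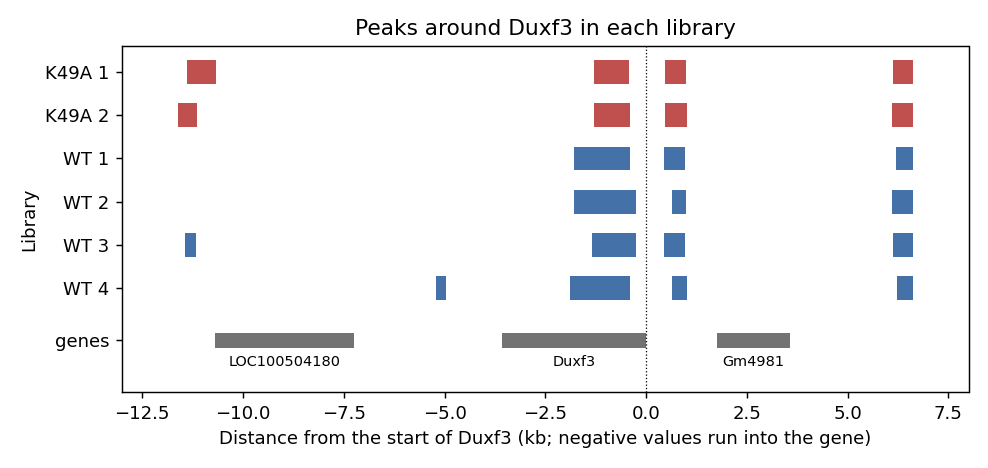
Peaks around Duxf3 in K49A 1 and 2 (top rows) and WT 1 to 4, with distance in kb from the start of the gene and negative values running into it. Bars span each peak, and grey bars are annotated genes. All 6 libraries have a pair of peaks on either side of the start, with the start itself in the gap, and a further peak about 6 kb before it.

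The other 6 zygotic members had no peak in any library. They are Zscan4c, Zscan4d and Zscan4f, Zfp352, a zinc finger gene, and Tcstv1 and Tcstv3, all transcribed in the brief zygotic burst. The nearest peak to the 3 Zscan4 genes was 613 to 4440 kb away in K49A and 47.8 to 905 kb away in WT. The nearest peak to Zfp352 was 1580 kb away in both K49A libraries and 154 to 529 kb away in WT. The nearest peak to Tcstv1 was 294 to 296 kb away in K49A and 2.96 to 70.4 kb away in WT. Tcstv3 had a WT peak at 1.05 kb, just outside the end window, and its nearest peak was 718 to 720 kb away in K49A and 1.05 to 220 kb away in WT. The Zscan4 and Tcstv families also consist of similar copies, so a missing peak there is uncertain in the same way.

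Of the oocyte genes, Zar1 and Ooep were marked in every WT library and in no K49A library. Zar1 (chr5:72577113-72581361) had end peaks of fold 2.66, 2.63, 3.18 and 3.55 in WT 1 to 4 (3.00 ± 0.442, SD, n = 4). Covered bases were 0 and 0 in K49A, against 291, 415, 732 and 458 in WT 1 to 4 (difference -474.0, exact permutation test, two-sided p = 0.133, adjusted 0.605). Its peaks were centred 718, 812, 396 and 786 bases into the gene, and the peak of WT 3 alone reached the promoter sequence.

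Ooep (chr9:78376903-78378588) had end peaks of fold 3.30, 2.80, 3.03 and 2.66 in WT 1 to 4 (2.95 ± 0.280, SD, n = 4). Covered bases were 0 and 0 in K49A, against 246, 348, 341 and 447 in WT 1 to 4 (difference -345.5, exact permutation test, two-sided p = 0.133, adjusted 0.605). Its peaks were narrow and centred 170, 232, 49 and 178 bases into the gene, and those of 3 WT libraries overlapped the promoter sequence. For Zar1 and Ooep the groups did not overlap. For Zar1 they did with a window of 500 bp (difference -58.0) and with 0.5 of the peak required inside the window (-255.8).

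The oocyte transcription factors Figla, which switches on the zona genes, and Nobox had end peaks in part of the WT libraries. Figla had fold 2.97, 2.85 and 2.60 in WT 1 to 3 (2.81 ± 0.189, SD, n = 3) and no peak in WT 4, and Nobox had fold 3.83 and 2.85 in WT 1 and 3. Neither had a K49A peak. Without WT 4, Figla joins the called genes, which are then 6 of 38 members (15.8%), beside 22.8% of all genes.

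The other members of the subcortical maternal complex did not share the end peaks of Ooep. Khdc3 had peaks inside the gene in WT 2 to 4 (2.89 ± 0.339-fold, SD, n = 3), Nlrp5 in WT 4 only, and Tle6 had no peak in any library, with the nearest 2100 to 4920 kb away in K49A and 3.79 to 29.9 kb away in WT. Padi6, which is needed for the cytoplasmic lattices of the egg, had a peak inside the gene in WT 2 only. Npm2, the maternal histone chaperone that helps to decondense the sperm nucleus, had peaks inside the gene in WT 2 to 4 (2.95 ± 0.114-fold, SD, n = 3). Zp1, Zp2 and Zp3, which encode the egg coat, had no peak in any library. The nearest peak to the 3 Zp genes was 472 to 8340 kb away in K49A and 6.56 to 199 kb away in WT.

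Peaks only inside the gene, with none at either end, were found at 0 and 0 members in K49A 1 and 2, against 1, 9, 5 and 5 in WT 1 to 4. Over all genes the share was 0.822 and 1.25% in K49A 1 and 2, against 7.40, 9.59, 9.43 and 10.6% in WT 1 to 4. In at least 1 WT library, 11 members (28.9%) had such a peak, beside 18.6% of all genes. This measure can depend on the length of a gene, which was not tested, and the lengths of all genes were not compared with those of the members. The median length was 9240 bp for the pluripotency, 25918.5 bp for the trophoblast, 4404 bp for the zygotic and 7459.5 bp for the oocyte genes. With a −log10 p of at least 5 required, 5 members (13.2%) had such a peak, beside 13.4% of all genes. They were 4 of the 11 and Tead4, which had no end peak past that threshold in at least 1 WT library. With peaks at the ends and peaks inside the gene both counted, 13 members (34.2%) had none in any library, beside 29.8% of all genes.

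The members' end peaks had a median fold slightly below that of all genes in WT, and above it in K49A, where Duxf3 is the only member. The median fold of the best end peak was 4.19 and 4.48 in K49A 1 and 2, which is Duxf3 alone, beside 3.50 and 3.13 for all genes with an end peak. In WT 1 to 4 it was 3.01, 2.83, 2.84 and 2.75 for the members, beside 3.26, 2.97, 3.00 and 2.99 for all genes. The median −log10 q was 17.5 and 29.8 in K49A 1 and 2, beside 2.0 and 2.95 for all genes. In WT 1 to 4 it was 1.59, 2.05, 2.60 and 2.03, beside 2.26, 2.18, 2.41 and 2.73, and WT 3 was the library where the members were higher. Of the 55 end peaks of members in WT lists, 18 had a −log10 p under 4.55, the weakest value in a K49A list. No K49A list holds a peak with a −log10 p as low as those of these 18.

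**Figure D4:**
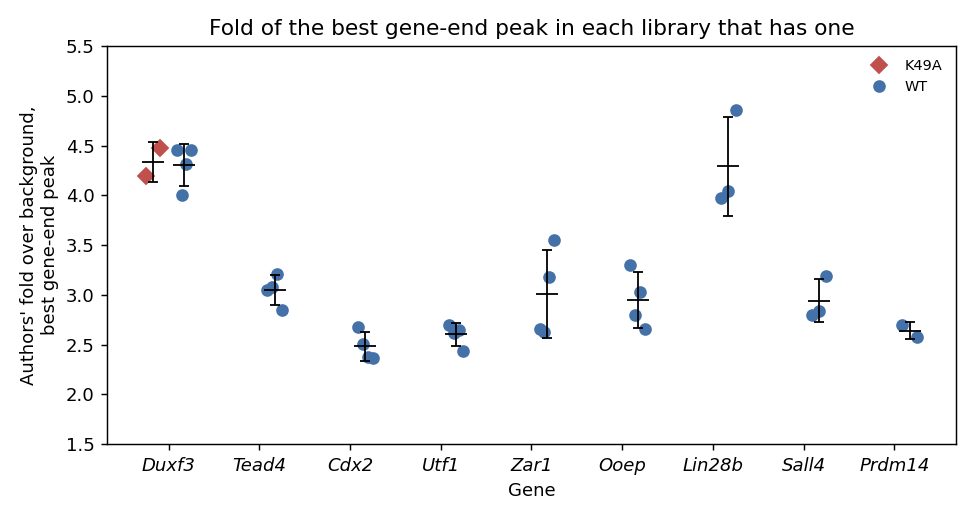
Authors' fold of the best end peak in each library for the 9 members with a peak in all WT libraries, K49A (diamonds) left of WT (circles). Black marks are the mean and SD of the libraries that had an end peak, and libraries without one are not drawn. Duxf3 alone has K49A values, 4.19 and 4.48, beside 4.30 ± 0.212 in WT. These values mix the sites of its pair. The best peak is the outer one in K49A 1, K49A 2 and WT 4, and the inner one in WT 1, 2 and 3. Compared site by site, the mean fold is 3.56 in K49A and 4.04 in WT for the inner peak. For the outer peak it is 4.34 and 3.34.

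The members' end peaks in WT lay mostly at the start of the gene where the start was annotated. Of all WT pairs of a peak and a member with a promoter entry, 39 were at the start only, 3 touched both ends and 1, at Cdx2 in WT 1, was at the finish only. In WT 1 to 4, 80.0, 90.0, 91.7 and 100% of the members' pairs were at the start only, beside 93.3, 90.8, 90.4 and 89.4% for all genes. The median midpoint of the peaks near a start, without Duxf3, was 269, 380, 352 and 177 bases into the gene in WT 1 to 4, beside 179, 178, 178 and 163 bases for all genes. These medians rest on 6 to 9 peaks per library.

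The promoters of the 24 members with an entry were poorer in CpG than promoters at large. Tead4, Sall4, Prdm14, Tfap2c, Fbxo15, Npm2, Zp1, Zp2, Dppa2, Dppa3, Dppa4, Dppa5a, Tcstv1 and Tcstv3 had no entry and are left out. The only Lin28b entry is that of its second start, so Lin28b counts here as a promoter without a peak. The median ratio of observed to expected CpG was 0.39 over 29 member promoters, beside 0.57 over 21263 promoters of 17492 genes. By class the median was 0.415 for 10 pluripotency, 0.44 for 3 trophoblast, 0.18 for 5 zygotic and 0.44 for 11 oocyte promoters. A peak overlapped 0 member promoters in K49A. In at least 1 WT library a peak overlapped 9 of 29 member promoters (31.0%), beside 49.5% of all promoters, and in all 4 WT libraries it overlapped 1, that of Utf1 (3.45%), beside 11.2% of all.

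Peaks on promoters went with CpG content in all genes, and the 29 member promoters with an entry lay mostly at the low end of that scale. Under a ratio of 0.2, 0 of 11 member promoters had a peak in any WT library, beside 6.02% of all promoters in that range. From 0.2 to 0.4 it was 2 of 4 members and 15.6% of all, from 0.4 to 0.6 it was 4 of 9 and 48.4%, and from 0.6 to 0.8 it was 3 of 5 and 73.9%. None of the 29 member promoters reached 0.8, a range that holds 6113 of all promoters, of which 86.9% had a WT peak. The 9 member promoters with a peak had a median ratio of 0.46 (range 0.35 to 0.67), and the 20 without had 0.19 (range 0 to 0.73). Cdx2, at 0.73 the richest, was among those without. Across promoters, the correlation of this ratio with the number of WT libraries with a peak was r = 0.40 over 29 member promoters and 0.634 over all 21263. This is a description, since promoters of one library share its depth and its threshold.

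**Figure D5:**
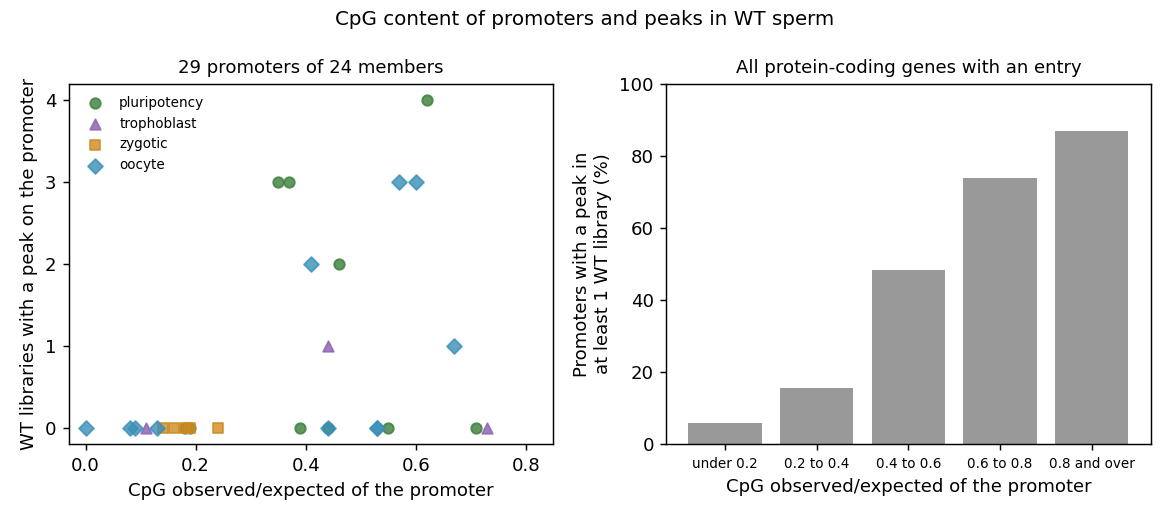
Left, number of WT libraries with a peak on each of 29 member promoters against the ratio of observed to expected CpG, by class. Right, share of all 21263 promoters with a peak in at least 1 WT library (percent), in ranges of the same ratio. The share grows from 6.02% to 86.9% across the ranges, and none of the 29 member promoters lies in the highest one.

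A pair of short motifs was looked for on both strands of the promoters. The octamer ATGCAAAT, the site of Oct4 and its relatives, was in 2 of 29 member promoters, those of Cdx2 and Zfp42, and in 1.66% of all. The letters TAATTG, an element bound by Nobox, were in 3 of 29, those of Lin28b, Ooep and Padi6, and in 6.83% of all. A match of such letters is not evidence of binding.

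Other genes of the same stages, which are not members, are given for comparison, beside the 21.8% of all genes with an end peak in every WT but no K49A library. Of 20 other pluripotency genes, 4 (20.0%) had such a call. They were L1td1 (3.20 ± 0.427-fold in WT), Tdh (3.08 ± 0.300), Klf2 (2.77 ± 0.233) and Fgf4 (2.67 ± 0.0839; SD, n = 4 each). Of 16 other trophoblast genes 5 (31.2%) did, with Fgfr2 (3.31 ± 0.577-fold), Ets2 (3.16 ± 0.214), Yap1 (3.13 ± 0.147) and Ascl2 (3.08 ± 0.336; SD, n = 4 each) the highest. Of 24 other oocyte genes 1 (4.17%) did, the germ cell helicase Ddx4 (2.78 ± 0.493-fold, SD, n = 4), and of 16 other zygotic genes 0 did.

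Outside the members, 2 of these other genes had an end peak in a K49A library. Eomes, a T-box factor of the trophoblast, had one of fold 2.77 in K49A 2, against 2.65 ± 0.331 in WT (SD, n = 4). The K49A 2 peak was at the high-coordinate end, and the strongest WT peaks were at the low-coordinate end. Ubtfl1, a zygotic gene, had one of fold 3.38 in K49A 2, against 3.99 ± 1.15 in WT (SD, n = 4), with nearly the same borders in K49A 2 and all WT libraries. With peaks inside the gene counted, 4 of 16 other zygotic genes (25.0%), 3 of 20 other pluripotency genes (15.0%), 1 of 16 other trophoblast genes and 0 of 24 other oocyte genes had a peak in at least 1 K49A library, beside 2.32% of all genes. Besides Ubtfl1 the zygotic ones were Zfp600, Sp110 and Usp17le, and the pluripotency ones Nr5a2, Prdm1 and Rex2, named after their values were seen. Some of these K49A peaks lay near the threshold of their list. Eomes and Nr5a2 in K49A 2 and Prdm1 in K49A 1, each in 1 library, had a −log10 q of 1.03, 1.01 and 1.21. The best peak of Rex2 and of each zygotic gene reached 2.03 or more in each K49A library that had one. Zfp600 and Rex2 lie near each other on chromosome 4, with K49A peaks from positions 146166930 and 147021066. A Sp110 peak in K49A 2 was also within 1 kb of an end of Sp140. How reads with several matches were placed is unknown here too, so peaks at genes with similar copies are uncertain. Zfp600 had a pair of peaks inside the gene in each of the 6 libraries. The one at higher coordinates had a fold of 4.61 and 4.59 in K49A 1 and 2, and of 3.85, 4.11, 4.40 and 3.94 in WT 1 to 4, higher in both K49A libraries than in every WT library and not tested. The one at lower coordinates had a fold of 3.48 and 3.17 in K49A 1 and 2, and of 3.13, 3.09, 3.25 and 4.04 in WT 1 to 4. There the groups overlapped. The share of all peaks that separate the groups by fold was not counted. As in the members, the zygotic list was the one with the lowest share of end peaks in WT (12.5 ± 5.10%, SD, n = 4), followed by the oocyte (17.7 ± 9.85%), trophoblast (50.0 ± 7.22%) and pluripotency lists (52.5 ± 16.6%).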

How the data were processed

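MNase-seq peak lists of 6 mouse sperm libraries were used, grouped by the sample titles into 2 K49A and 4 WT libraries. Per the labels' protocols, sperm were treated with DNase I, decondensed and digested with MNase, and the mononucleosome band was purified from a gel. The submitters' processing notes name FastQC, BWA, Picard, SAMtools and MACS2, without versions, and build mm10. No source used here tells the settings, whether a control was used, or how duplicates and reads with several matches were handled. Each deposited list, called per library by the authors, gives for each peak a score, a fold over background (a ratio) and its −log10 p and q. The score was not used further. The lists hold no counts, so depth is unknown, and only their number of libraries and the callers' thresholds limit precision. Nothing says whether libraries of a group share animals, so p-values speak only of the spread among these libraries, which may be technical.

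Peaks were placed on RefSeq genes of GRCm38.p6, the assembly behind mm10. An end peak overlaps a window of 1 kb either side of a gene end by at least 1 bp. Promoters and their strand came from the RefSeq promoter table. Covered bases per gene were compared by a two-sided exact permutation test over 15 splits, adjusted by Benjamini-Hochberg over 21887 genes. Scripts (Python 3.11.15, numpy 2.4.6, pandas 2.3.3, matplotlib 3.10.9) were tested on simulated data. The members and the gene lists were chosen with earlier results of these data known. Of the members, values are given for those with a peak in all 4 WT or in any K49A library, and counts and ranges for the others, with further values chosen after they were seen. From each other list the rule took up to 4 genes with an end peak in all 4 WT libraries, by mean fold, and each gene with an end peak in K49A. In the other zygotic list, 16 genes are in the gene table. Alternatives were another window, a stricter threshold, equal list lengths, another overlap, leaving out each library, and a replicate block.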

Additional observations from a re-analysis of the deposited data

Results flagged for a closer look

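One value stood apart from the others of its group. The bases covered by peaks at the ends of Tead4 were 285 in WT 1, while the other WT libraries had 892, 872 and 798, and both K49A libraries had 0. WT 1 lies far from the remaining WT libraries by Dixon's test for a single outlying value in a group of 4. It was 1 of 23 groups looked at, and chance gives about 1 in 20. WT 1 also has the shortest WT list (11313 peaks, beside 20458 to 27903), and the part of this in the value was not tested.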

How the results depend on the processing

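The number of members with an end peak in every WT but no K49A library (5) was 6 with a window of 2 kb (adding Sall4), 3 with one of 500 bp (Utf1, Tead4 and Ooep), 3 when 0.5 of the peak had to lie inside the window, beside 24.5, 18.6 and 19.7% of all genes, and 0 with a −log10 p of at least 5, with a −log10 q of at least 2, and with every list cut to 700 peaks. All genes called in the same way then numbered 1517 and 1826 under the stricter thresholds and 15 with lists of equal length. Members with a peak only inside the gene in at least 1 WT library (11) were 5, 4 and 1 under the last 3 of these settings. Over all genes that share was 13.4, 15.0 and 1.48%. Genes whose covered bases were lower in both K49A libraries than in every WT library (4821) were 1550, 1841 and 20. Leaving out 1 library at a time gave 5 to 7, 8 to 11 and 4824 to 7153 for these 3 counts. Over all genes the shares for the first 2 were then 21.9 to 32.4% and 15.1 to 18.6%. Duxf3 was the 1 member with a K49A peak under every setting run. Its difference in covered bases, 23.2, turned to -65.0 with a window of 500 bp, -448.0 with one of 2 kb and -29.0 without WT 4, and it ran from -29.0 to 76.3 when 1 library at a time was left out. The cause was not tested. Of the other comparisons of single members under an alternative, 93 kept their direction and side, 3 came to a difference of 0 without a separation before or after, 19 lost the separation and 8 gained it.

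Whether the replicate numbers in the titles pair the samples could not be checked, since 137 of 21887 genes have a K49A end peak and the covered bases of all others are 0 in both K49A libraries. With numbers 1 and 2 as a replicate block, the 4 counts were 6, 9, 1 and 5362. With a block by like file names (K49A 1 with WT 1, K49A 2 with WT 4), chosen after seeing the data, they were 7, 6, 1 and 5835. Over all genes the shares for the first 2 counts were 24.2 and 12.6% with the title numbers. With like file names they were 26.4 and 13.7%. The Duxf3 difference was 24.5 and 95.5 under these blocks, where its groups did not overlap. Depth is unknown, so a site without a peak is not shown to lack nucleosomes. The K49A lists held no peak with a −log10 p as low as that of the weakest WT peaks, although the lowest −log10 q was nearly the same in all lists.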
